A study of Arabidopsis thaliana with 4 samples.

Results

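MSRB6 (AT4G04840) and MSRB8 (AT4G21840) encode B-type methionine sulfoxide reductases of Arabidopsis thaliana. Each gene had 1 probe assigned to it alone. Together they make up 2 of the 9254 genes and 2 of the 9335 probes that could be assigned to 1 gene. Probes with several genes or no listed gene were not counted. Both were chosen by their nai1-1 over Col-0 ratios in an earlier look at the same arrays, where their transcripts were called lower in nai1-1 roots. Those ratios are therefore described here without a test. The other probes of single genes whose symbol or RefSeq synonym begins with MSRA or MSRB, 5 in number, served as the background.

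Methionine in proteins is oxidised by reactive oxygen species to methionine sulfoxide, which occurs in an S and an R form. A-type reductases (MSRA) reduce the S form and B-type reductases (MSRB) the R form, and both are recharged with electrons from thioredoxins or glutaredoxins. Plants carry enlarged MSR families with members in the cytosol, the plastids and the secretory pathway. They are known for protein repair and for roles in oxidative stress.

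Transcripts of nai1-1 roots, from a mutant without normal ER bodies, were set against those of wild-type Col-0 roots on 4 two-colour Agilent arrays that each carried both genotypes. ER bodies, which store beta-glucosidases in plants of the cabbage order, are elongated bodies that derive from the endoplasmic reticulum. All plants were untreated, 20 days old and grown at 22 °C under continuous light on MS medium with 1% sucrose, with mutant and wild type on the same plate and 3 plants pooled per genotype. Arrays 1 and 4 carried the nai1-1 RNA in Cy3, whereas arrays 2 and 3 carried it in Cy5. The labels do not state how many pools of plants stand behind the 4 arrays, so their spread, and every p-value below, may reflect technical variation alone.

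Each value is given as the log2 ratio of nai1-1 to Col-0, so a negative value means a lower transcript level in the mutant. The direction assumes that the deposited ratio is Cy5 over Cy3, the convention of the extraction software, and every sign would turn under the opposite one. Arrays 1 to 4 had median absolute deviations of 0.39, 0.33, 0.22 and 0.19 over all 22575 probes, scaled to the standard deviation of a normal distribution. Unscaled, they were 0.26, 0.22, 0.15 and 0.12. A two-colour ratio gives no level, and spot brightness was not analysed here, so neither the abundance of a transcript nor whether a spot was above background is known. In bulk roots, fewer expressing cells and less RNA per cell cannot be told apart.

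The mutated gene itself, NAI1 (AT2G22770), which encodes a basic helix-loop-helix transcription factor, had ratios of -0.77, -1.21, -0.21 and -0.60 on arrays 1 to 4 and did not pass the test (limma adjusted p = 0.259). The labels do not say what the lesion does to the transcript. NAI2, an ER body component, averaged -2.81 and PYK10, the main root ER body beta-glucosidase, averaged -2.01. Both passed, but lost the call in 6 of 12 alternative fits, among them each fit that left out 1 array. In those 6 fits 0 of all 22575 probes passed, so no gene could keep a call.

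MSRB6 had ratios of -2.61, -2.62, -1.82 and -2.11 on arrays 1 to 4. It was below Col-0 on all 4 arrays, and the values of arrays 1 and 2 lay lower than those of arrays 3 and 4. The mean was -2.29 ± 0.39 (SD, n = 4), with a standard error (SE) of 0.18 in the fit. On the linear scale the transcript was 4.89-fold lower in nai1-1, with folds of 6.10, 6.17, 3.53 and 4.32 on the single arrays.

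MSRB8 had ratios of -1.23, -1.69, -1.42 and -1.77 on arrays 1 to 4. It too was below Col-0 on all 4 arrays, here with the smallest fall on array 1 and the largest on array 4. The mean was -1.53 ± 0.25 (SD, n = 4; SE 0.13), which is a 2.88-fold lower transcript level in nai1-1. The folds on the single arrays were 2.35, 3.22, 2.68 and 3.41.

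**Figure D1:**
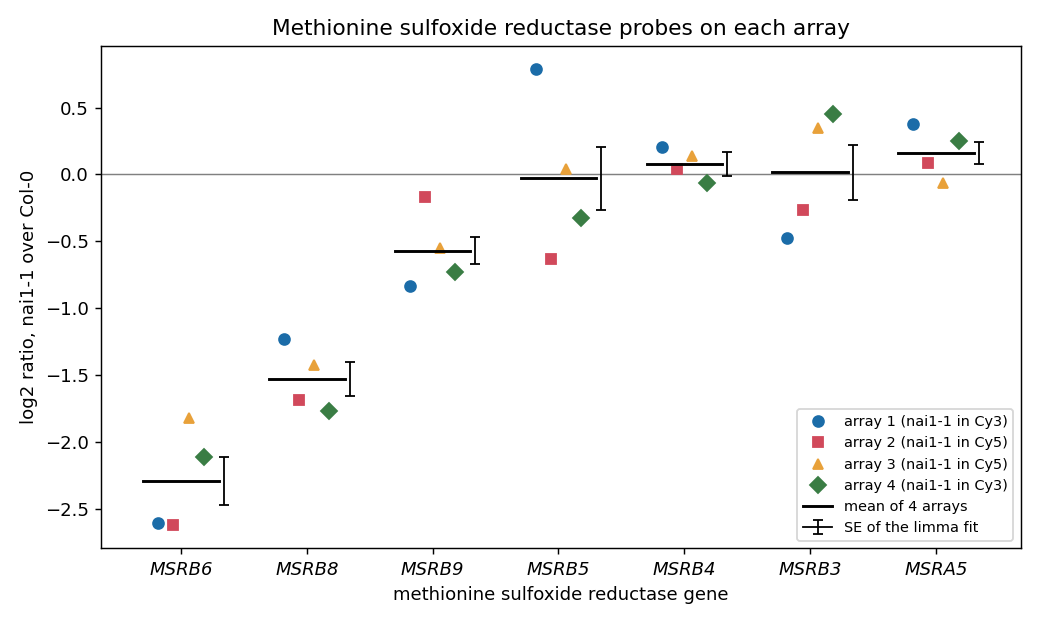
Log2 ratio of nai1-1 over Col-0 (y axis) for the 7 measured methionine sulfoxide reductase genes (x axis), with 1 symbol per array, a bar at the mean of 4 arrays and an error bar of 1 SE of the limma fit. MSRB6 and MSRB8 lie between -2.62 and -1.23, below every value of the other 5 genes, of which the lowest is -0.83.

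The lowest and highest ratios of these 2 genes on any array were -2.62 and -1.23, and no value of the other 5 MSR genes was below -0.83. This gap follows from how the 2 genes were picked. Both were among the 54 single-gene probes called lower in nai1-1, which are 0.578% of such probes, and that call led to their choice. It held for each gene in 6 of 12 alternative fits, some of which barely changed the fit. It was lost with scaled arrays, with arrays averaged in pairs and whenever 1 array was left out. In those fits 0 of all 22575 probes passed, so no gene could keep a call. Of all single-gene probes, 12.2% were below Col-0 on all 4 arrays and 1.66% were at least 2-fold lower in the mean.

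Ordered from the lowest mean upward, MSRB6 stood at rank 13 and MSRB8 at rank 58 of the 9335 single-gene probes. On single arrays MSRB6 ranked 6.5 (tied) on array 1, 8 on array 2, 50 on array 3 and 41 on array 4. MSRB8 ranked 69, 42.5 (tied), 96 and 63.5 (tied). On no array did either gene rank above 96 from the bottom, and MSRB6 was the lower of the pair on all 4.

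**Figure D2:**
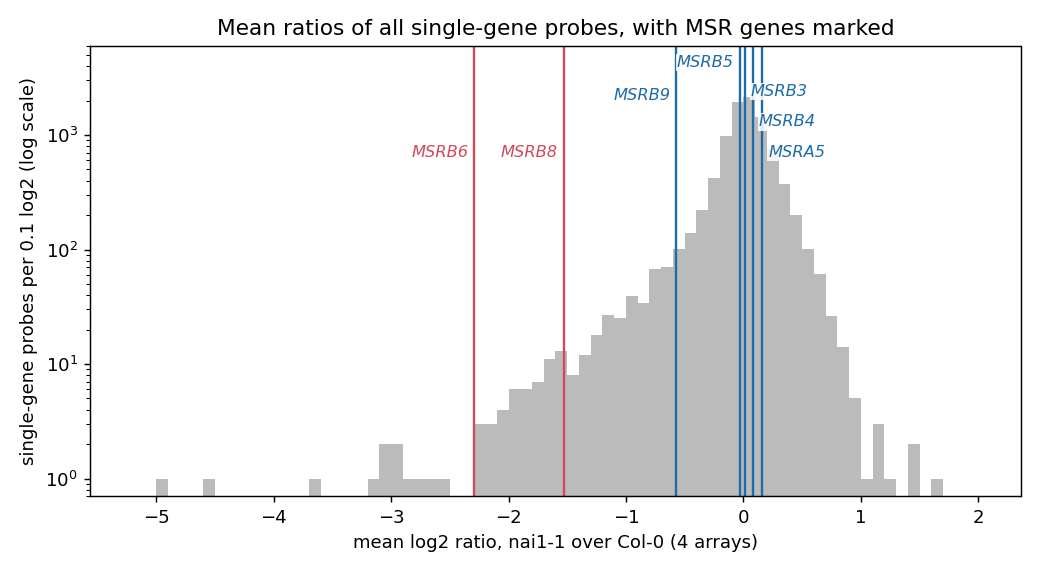
Number of single-gene probes (y axis, log scale) by mean log2 ratio of nai1-1 over Col-0 in steps of 0.1 (x axis), with vertical lines at the 7 measured MSR genes. MSRB6 at -2.29 and MSRB8 at -1.53 lie in the lower tail, MSRB9 at -0.57 on its shoulder and the other 4 genes near the centre, between -0.03 and 0.16.

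The 2 genes differed in how their ratios ran across the arrays. MSRB6 minus MSRB8 was -1.38 on array 1, -0.94 on array 2, -0.40 on array 3 and -0.34 on array 4, a mean of -0.76 ± 0.49 (SD, n = 4). The mean of arrays 1 and 2 was -2.62 for MSRB6 and -1.46 for MSRB8, whereas the mean of arrays 3 and 4 was -1.96 for MSRB6 and -1.60 for MSRB8. The difference between the genes was therefore larger on arrays 1 and 2, which were also the arrays with the wider spread over all probes. The part of that spread in the difference was not tested.

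Each ratio was also divided by the scaled median absolute deviation of its array. For MSRB6 this gave -6.72, -8.07, -8.35 and -11.4 on arrays 1 to 4, and for MSRB8 -3.18, -5.19, -6.52 and -9.56. On this scale both genes stood furthest from the centre on array 4 and nearest to it on array 1. On the log2 scale that order held for MSRB8 but not for MSRB6.

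The dye contrast was not used to choose the genes and could be tested. With nai1-1 in Cy3 the mean ratio of MSRB6 was -2.36, and with nai1-1 in Cy5 it was -2.22. MSRB8 averaged -1.50 with nai1-1 in Cy3 and -1.55 with nai1-1 in Cy5. The dye effect (Cy5 over Cy3) was 0.07 on the log2 scale for MSRB6 (95% interval -0.41 to 0.55, limma adjusted p = 0.940) and -0.03 for MSRB8 (95% interval -0.37 to 0.32, limma adjusted p = 0.974). In that fit 0 of 22575 probes (0%) passed for dye with limma, with 1217 at an unadjusted p under 0.05, and 1.2% passed once probes with an exact ratio of 0 were left out. In the latter fit MSRB6 (adjusted p = 0.963) and MSRB8 (adjusted p = 0.985) did not pass either.

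Of the 14 MSR genes in the RefSeq table, 7 had a single-gene probe: 6 of the 9 B-type genes and 1 of the 5 A-type genes. MSRB1, MSRB2, MSRB7 and MSRA1 to MSRA4 were not analysed here, so the plastid B-type enzymes MSRB1 and MSRB2 are missing. Of the 5 background genes, 0 passed the limma test at an adjusted p under 0.05, where 0.496% of all probes passed in either direction. At an unadjusted p under 0.05 there was 1 of the 5, where 14.9% of all single-gene probes had such a p, so the count is near that share. Their median was 0.01, against 0.02 over all single-gene probes.

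MSRB9 (AT4G21850), a B-type reductase gene, had the smallest p of the 5. Its ratios were -0.83, -0.17, -0.55 and -0.73 on arrays 1 to 4, all below Col-0, with array 2 nearest to 0. The mean was -0.57 ± 0.29 (SD, n = 4; SE 0.10; 95% interval -0.84 to -0.30), and it did not pass (limma adjusted p = 0.135). It passed in the fit without probes holding an exact 0 (adjusted p = 0.0490), where 3.61% of probes passed, and in the fit on single-gene probes only (adjusted p = 0.0245), where 6.11% did. It did not pass in the other 10 of 12 alternatives, and leaving out single arrays gave means between -0.67 and -0.48.

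MSRB3 (AT4G04800), whose product is known as an endoplasmic reticulum enzyme, had ratios of -0.48 and -0.26 on arrays 1 and 2 and of 0.35 and 0.45 on arrays 3 and 4. Its mean of 0.01 ± 0.46 (SD, n = 4) thus stands for arrays that lay on both sides of 0, split by array number and not by dye. The 95% interval of -0.54 to 0.57 leaves room for a change of up to that size in either direction (limma adjusted p = 0.990).

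MSRB5 (AT4G04830), also B-type, had ratios of 0.79, -0.63, 0.04 and -0.32, the widest spread of the 7 measured genes, with a mean of -0.03 ± 0.61 (SD, n = 4). Its 95% interval was -0.67 to 0.61 (limma adjusted p = 0.976). MSRB4 (AT4G04810), another B-type gene, had 0.21, 0.04, 0.14 and -0.06 and averaged 0.08 (95% interval -0.16 to 0.32, limma adjusted p = 0.744). The single measured A-type gene, MSRA5 (AT2G18030), had 0.38, 0.09, -0.07 and 0.25 and averaged 0.16 (95% interval -0.06 to 0.39, limma adjusted p = 0.503).

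In the order of their means the 7 genes ran MSRB6, MSRB8, MSRB9, MSRB5, MSRB3, MSRB4 and MSRA5. The single-array values of neighbours in this order did not overlap between MSRB6 and MSRB8 or between MSRB8 and MSRB9. MSRB6 and MSRB8 were picked by these same ratios, so the gap to MSRB9 follows from the choice. Between MSRB6 and MSRB8 the gap was narrow, from -1.82 (MSRB6, array 3) to -1.77 (MSRB8, array 4). From MSRB9 on, the values of each gene overlapped those of the next.

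MSRB6 and MSRB8 belong to separate runs of MSRB genes on chromosome 4. In the order of the RefSeq gene table, MSRB3, MSRB4, MSRB5 and MSRB6 form 1 run, interrupted by a pseudogene and a long noncoding RNA gene. MSRB7, MSRB8, MSRB9 and MSRB2 form the other, without interruption. Each run thus held 4 MSRB genes and 1 of the 2 genes described here.

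Within the first run, MSRB6 averaged -2.29, whereas MSRB3, MSRB4 and MSRB5 averaged between -0.03 and 0.08. MSRB6 minus MSRB5 was -3.40 on array 1, -1.99 on array 2, -1.86 on array 3 and -1.79 on array 4. Within the second run, MSRB8 and the gene after it, MSRB9, were both below Col-0 on all 4 arrays. MSRB8 minus MSRB9 was -0.40 on array 1, -1.52 on array 2, -0.87 on array 3 and -1.04 on array 4. Probe sequences were not used here, so signal that related MSRB transcripts may share was not tested.

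Within 5 places before and after the runs, 7 other genes had a single-gene probe, and their means lay between -0.38 and 0.35, with 0 passing the limma test. At an unadjusted p under 0.05 there was 1 of the 7, near the 14.9% of all single-gene probes. Beside the first run, MED21, a Mediator subunit gene, averaged 0.21, and DER2.2, a Derlin gene 3 places after MSRB6, averaged -0.17. Beside the second run, QQT2 averaged -0.03, DER2.1 averaged -0.05 and AT4G21820, the gene just before MSRB7, averaged 0.35. AT4G21870, 2 places after MSRB2, had -0.52, -0.45, -0.31 and -0.23 on arrays 1 to 4, below Col-0 on each (mean -0.38 ± 0.13, SD, n = 4; limma adjusted p = 0.227). AT4G21880 averaged -0.11 and held an exact 0 on 2 arrays.

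**Figure D3:**
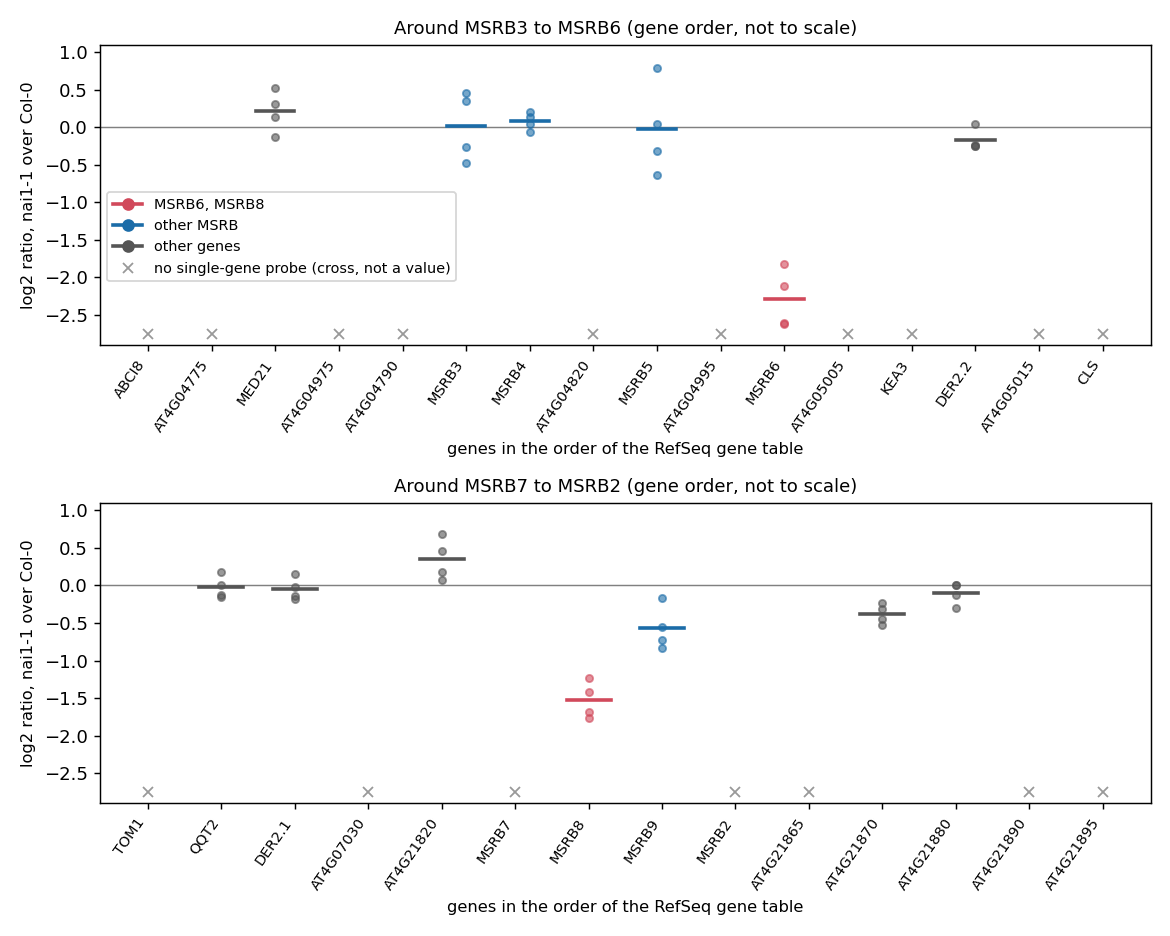
Log2 ratio of nai1-1 over Col-0 (y axis) for genes in and up to 5 places around the 2 MSRB runs on chromosome 4, in gene table order (x axis, not to scale), with points for single arrays, bars for means of 4 arrays and crosses at the foot for genes without a single-gene probe. MSRB6 stands apart at -2.29 in its run, while MSRB8 at -1.53 is followed by MSRB9 at -0.57.

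The single-gene probes most like each gene were found by the root mean square difference of the log2 ratios over the 4 arrays, out of 9335 probes. A similar run across the arrays therefore follows from how the probes were picked. For MSRB6 they were AT3G59340 (0.354), AT3G20370 (0.441) and PYK10 (0.442). AT3G59340 had -2.18, -2.28, -1.68 and -1.69 on arrays 1 to 4, which like MSRB6 was lower on arrays 1 and 2. PYK10 had -2.00, -2.03, -1.68 and -2.32.

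For MSRB8 the most alike probes were AT5G41740 (0.144), AT1G54010, a GDSL-like lipase gene (0.155), and PUP18, a purine permease gene (0.163). AT5G41740 had -1.21, -1.61, -1.22 and -1.58, and PUP18 had -1.35, -1.67, -1.60 and -2.02. As with MSRB8, array 1 gave the smallest fall for each of these 3 genes and arrays 2 and 4 larger ones, a likeness built into the choice. On arrays 2 and 3, AT1G54010 had -1.71 and -1.72, whereas MSRB8 had -1.69 and -1.42. The same distance between MSRB6 and MSRB8 was 0.872, so neither was among the 3 nearest to the other.

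Thioredoxins and their reductases, which recharge MSR enzymes, were measured for 7 of 25 listed genes. The 8 h-type thioredoxins, which include cytosolic forms, and the reductases NTRA and NTRB had 0 single-gene probes. Of the 7, 0 passed the limma test and 0 had an unadjusted p under 0.05. Over all features 0.496% of probes passed and 14.9% of single-gene probes had such a p, so a count of 0 in so short a list sets it apart from no other. Their means lay between -0.17 and 0.12, with a median of 0.03. The plastid thioredoxins TRXm2, TRXx and TRXy1, which had the smallest p-values, averaged -0.17, -0.14 and 0.12.

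Glutaredoxins and glutathione reductases were measured for 11 of 15 listed genes. Of these, 0 passed the limma test and 2 had an unadjusted p under 0.05, near the share of 14.9% over all single-gene probes, with a median of -0.03. GRX480 (AT1G28480), a glutaredoxin known to interact with TGA transcription factors, had -1.40, -1.43, -2.39 and -2.70 on arrays 1 to 4. It was below Col-0 on each array, lower on arrays 3 and 4 than on arrays 1 and 2, the reverse of MSRB6. Its mean was -1.98 ± 0.29 (SE, n = 4; limma adjusted p = 0.0979). GRX480 passed in 3 of 12 alternatives, with adjusted p from 0.00178 to 0.451 over all of them. These 3 were the fits without exact 0 values, without a dye term and on single-gene probes only. They called 778 of 21559, 394 of 22575 and 570 of 9335 probes. The glutaredoxins GRXC5 and GRXC3 averaged 0.41 and -0.26.

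Genes for the synthesis and turnover of methionine and S-adenosylmethionine were measured for 4 of 22 listed genes, and 0 passed the limma test or had an unadjusted p under 0.05, against 0.496% of all probes and 14.9% of single-gene probes. CBL, a cystathionine beta-lyase, averaged 0.21, MGL, a methionine gamma-lyase, 0.18, and MMT, a methionine S-methyltransferase, 0.12. Of enzymes that remove peroxide or superoxide, 5 of 41 listed genes were measured, and again 0 passed or had an unadjusted p under 0.05. The peroxiredoxins PRXIIE and 2CPA averaged 0.34 and 0.21, and MDAR2, a monodehydroascorbate reductase, 0.13. The median of the methionine list was 0.60 on array 1 and between -0.09 and 0.10 on the other arrays, and that of the peroxide list 0.54 on array 1 and between -0.07 and 0.13 on the others. Both small lists were thus high on array 1, the array with the widest spread over all probes. The median of the glutaredoxin list was also highest there, at 0.25, whereas that of the thioredoxin list was -0.02. MSRB6 had -2.61 on array 1 and -2.62 on array 2, and a link with these lists was not tested.

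**Figure D4:**
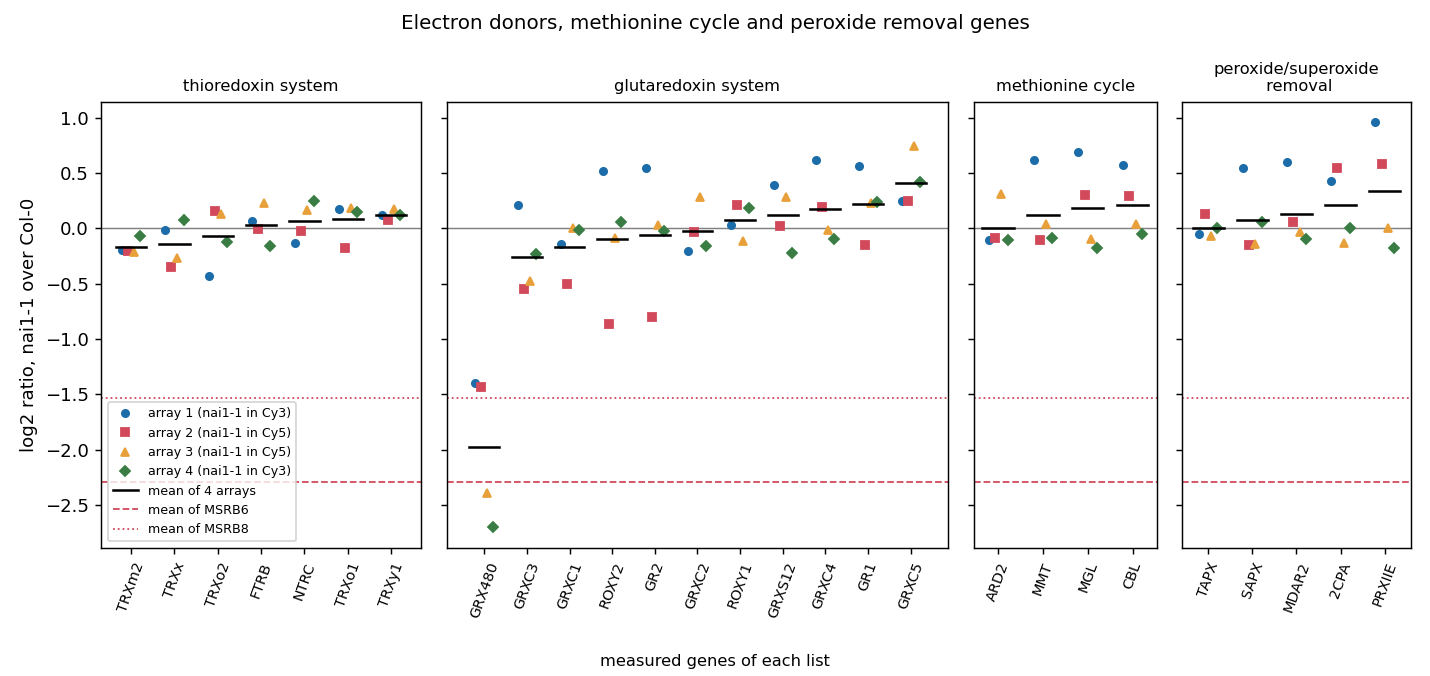
Log2 ratio of nai1-1 over Col-0 (y axis) for the measured genes of 4 lists (x axis), with 1 symbol per array, a bar at the mean of 4 arrays and red lines at the means of MSRB6 (-2.29, dashed) and MSRB8 (-1.53, dotted). GRX480 is the single gene whose mean, -1.98, falls between both lines, and the other means lie between -0.26 and 0.41.

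Because ratios give no level, markers could not check the root label itself, only whether marker ratios differed. None was called, where 0.496% of all probes were, so so few markers could hardly show a call. Photosynthesis genes, which would mark green shoot tissue, averaged between -0.18 and -0.09 in the 4 of 10 listed genes that were measured. Their median on single arrays ran from -0.44 on array 2 to 0.12 on array 4. The root hair expansins EXPA7 and EXPA18 averaged 0.59 and 0.38, and the endodermis gene GSO1 0.20. At an unadjusted p under 0.05 there was 1 of these 3 genes, EXPA7, and 0 of the 4 photosynthesis genes, against 14.9% of single-gene probes. EXPA7 was above Col-0 on all 4 arrays (limma adjusted p = 0.102) and passed in 2 of 12 alternatives (adjusted p from 0.0167 to 0.451). These were the fits without exact 0 values and on single-gene probes only, where 3.61% and 6.11% of probes passed. The part of cell composition in the ratios of MSRB6 and MSRB8 was not tested.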

How the data were processed

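Total RNA of nai1-1 and Col-0 roots was labelled from 5 µg by linear amplification per the labels' protocols. For every array the authors deposited the log10 ratio of the dyes at each probe. The submitters' processing notes name Agilent Feature Extraction 7.1, and background and dye settings are not given in the sources. Ratios were divided by 0.301 to give log2 values, and arrays 1 and 4 were turned. Nothing else was normalized, filtered or imputed, and no pair of arrays held identical values. As deposited, arrays of opposite dye orientation correlated between -0.75 and -0.33 (Pearson r across single-gene probes). After turning, all pairs correlated between 0.33 and 0.75 across these single-gene probes. Across all 22575 probes used in the fit, agreement was weaker. There, arrays of opposite dye orientation correlated between -0.14 and 0.13 as deposited, so close to 0. Arrays of the same orientation correlated at 0.44 and 0.66 across all probes. The cause of this difference was not tested. The number of arrays limits the precision.

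Gene names came from the annotation of the platform, updated by gene identifier from a RefSeq table of assembly TAIR10.1 used only for names and gene order. Of 9335 single-gene probes, 9317 matched it. A further 40 probes had several genes and 13200 were not listed.

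limma 3.58.1 in R 4.3.3 (lmFit, eBayes) was fitted on all 22575 probes with a genotype and a dye term, two-sided, with Benjamini-Hochberg adjustment at 0.05. All limma p-values come from it unless another fit is named. The script was tested on simulated data. Intervals are 95% intervals of the fit.

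The genes, lists and tests were chosen with earlier results of these data known. Named genes were all measured MSR genes, measured neighbours within 5 places, the 3 most alike probes of each gene, and up to 3 members of each list by smallest p. Sequences were not used here.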

Additional observations from a re-analysis of the deposited data

Results flagged for a closer look

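Among 64 values tested over the 4 arrays (the MSR genes, their neighbours, the alike probes, list members and list medians), Dixon's test set a single array apart for 5, and about 3.2 would be set apart by chance. Neither MSRB6, MSRB8 nor another MSR gene was among them. AT1G54010, alike to MSRB8, was at -1.32 on array 1 and between -1.75 and -1.71 on the others. DER2.2, near MSRB6, was at 0.044 on array 2 and between -0.25 and -0.24 on the others. The thioredoxin gene TRXm2 (ATHM2) was at -0.072 on array 4 and between -0.21 and -0.20 on the others. TRXo1 (TO1), another thioredoxin gene, was at -0.18 on array 2 and between 0.15 and 0.19 on the others. ARD2 (ATARD2), of the methionine list, was at 0.31 on array 3 and between -0.10 and -0.08 on the others.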

How the results depend on the processing

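MSRB6 and MSRB8 stayed below Col-0 in all 12 alternatives run. Both were below Col-0 on all 4 arrays and were chosen for low ratios, so that sign was fixed in advance. Means lay between -2.49 and -2.09 for MSRB6 and between -1.71 and -1.39 for MSRB8, within 1 SD of the value reported. Fits that only changed which other probes were used left both means as they were. The call that led to their choice held in 6 of 12 alternatives for each. Among those 6 were median centring and array weights, which left the fit almost unchanged, with 112 probes called in each. Another of the 6, chosen after seeing the data, combined averaging in pairs with leaving out exact 0 values. The count of probes called between genotypes was 112 and became 778 without probes holding an exact 0, 394 without a dye term and 570 on single-gene probes only. It was 0 with arrays scaled to one spread, 0 with arrays 1 and 2, and 3 and 4, averaged as 2 replicates, and 0 when any single array was left out. Averaging in pairs and leaving out exact 0 values together, chosen after seeing the data, gave 121. The count of other MSR genes called, 0 in the fit reported, was 1 (MSRB9) without exact 0 values, 1 on single-gene probes only and 0 when any single array was left out. The dye term gave 258 probes without exact 0 values and 0 otherwise. MSRB5 (-0.31 to 0.25) and MSRB3 (-0.22 to 0.25) changed sign when single arrays were left out. NAI2 and PYK10 lost their calls with scaled arrays, paired arrays and when any single array was left out, and NAI1 passed on single-gene probes only (limma adjusted p = 0.0428). The cause of these changes was not tested. Each ratio already pairs both genotypes within an array.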
